A study of Mus musculus with 4 samples.

Results

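β-cells with high levels of heat shock transcripts were found in all 4 libraries of mouse islets, and 273 of the 4804 β-cells, or 5.68% (5.04 to 6.38, exact binomial 95% interval), belonged to them. They were selected on a single transcript, Hspa1a, at more than 10 UMIs per 10000 UMIs of the cell. A UMI is a unique molecular identifier, so that counts are of captured molecules. β-cells were barcodes with at least 5% of UMIs from Ins1 and Ins2 and under 1% each from Gcg, Sst and Ppy, among 7471 of 12571 barcodes, those in which 200 to 4000 genes were detected and mitochondrial UMIs did not exceed 12%. Islets of adult male C57BL/6 mice (C57BL6/J in the study's methods) were pooled, divided, and left untreated or exposed for 6 h in culture to IL-1β, to IFN-γ, or to both cytokines (the combined library), after which cells were dissociated with trypsin and captured in droplets. Each condition gave 1 library, so no difference has a replicate check, and the cells of a library share its pool, its dissociation and its capture. Levels below are summed UMIs of a class of cells per 1000000 of its UMIs (CPM). Intervals cover counting error only. Where 4 values follow each other, their order is untreated, IL-1β, IFN-γ and combined, and the other β-cells of the same library are the comparison throughout.

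The heat shock response raises chaperones when proteins misfold. The transcription factor HSF1 drives it through heat shock elements, which are alternating GAA and TTC units in promoters. The inducible HSP70 proteins (Hspa1a and its neighbour Hspa1b) bind unfolded chains, HSP40 proteins such as Dnajb1 and Dnaja1 deliver clients and stimulate the HSP70 ATPase, and HSP110 (Hsph1) exchanges its nucleotide. In β-cells, IL-1β acts mainly through NF-κB, which drives Nos2, the inducible nitric oxide synthase, and IFN-γ acts through JAK kinases, which lead to the expression of interferon-response genes. Maturity of β-cells is marked by transcription factors such as Pdx1 and Mafa and by secreted products such as Ucn3.

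Promoters of leading genes are shown because these genes were high together and because heat shock elements can be read from the letters. All stretches printed hold a pair of such units, and genes without a pair there, such as Dnajb1, are not printed. The sequences are from RefSeq, 170 bases upstream of the annotated start, with pairs of units (GAANNTTC or TTCNNGAA, each its own reverse complement) in capitals.
Hspa1a (GRCm38.p6, chr17:34972157-34972326, minus strand): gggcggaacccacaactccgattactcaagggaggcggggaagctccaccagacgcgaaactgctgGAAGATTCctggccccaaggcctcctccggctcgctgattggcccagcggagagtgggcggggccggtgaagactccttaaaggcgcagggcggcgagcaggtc
Hspa1b (GRCm38.p6, chr17:34959239-34959408, minus strand): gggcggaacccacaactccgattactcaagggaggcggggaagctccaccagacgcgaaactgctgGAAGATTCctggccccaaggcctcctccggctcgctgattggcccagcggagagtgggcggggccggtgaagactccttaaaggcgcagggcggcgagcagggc
Hspb1 (GRCm38.p6, chr5:135887749-135887918, plus strand): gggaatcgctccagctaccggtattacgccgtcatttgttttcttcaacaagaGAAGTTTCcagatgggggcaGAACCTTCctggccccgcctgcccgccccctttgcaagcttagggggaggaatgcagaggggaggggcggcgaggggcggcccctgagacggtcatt
Hspe1 (GRCm38.p6, chr1:55087978-55088147, plus strand): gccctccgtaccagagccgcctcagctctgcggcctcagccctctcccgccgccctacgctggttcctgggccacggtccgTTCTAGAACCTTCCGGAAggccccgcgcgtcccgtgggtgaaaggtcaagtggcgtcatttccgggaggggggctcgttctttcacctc
Dnaja1 (GRCm38.p6, chr4:40722298-40722467, plus strand): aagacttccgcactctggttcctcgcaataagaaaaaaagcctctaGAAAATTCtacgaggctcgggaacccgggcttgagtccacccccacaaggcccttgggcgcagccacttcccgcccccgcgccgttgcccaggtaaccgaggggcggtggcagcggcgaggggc
Hsph1 (GRCm38.p6, chr5:149636316-149636485, minus strand): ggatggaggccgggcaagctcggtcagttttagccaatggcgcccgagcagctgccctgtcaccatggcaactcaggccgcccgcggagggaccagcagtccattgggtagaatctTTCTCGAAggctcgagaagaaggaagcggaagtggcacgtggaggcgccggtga
Jun (GRCm38.p6, chr4:95052223-95052392, minus strand): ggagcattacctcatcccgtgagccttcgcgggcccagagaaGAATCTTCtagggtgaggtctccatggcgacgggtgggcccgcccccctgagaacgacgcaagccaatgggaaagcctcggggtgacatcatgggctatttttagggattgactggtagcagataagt
The windows of Hspa1a and Hspa1b, 250 bases before to 50 after the start, were identical at 296 of 300 bases, and each held 1 pair of units, 104 bases upstream. Hsph1 held 3 pairs in the window of either of its starts, 1 of them upstream and the others after the start. Of the 3 windows of Dnaja1, only the one printed held a pair, and the first of 2 is printed for Hsph1. That of Hspe1 held overlapping pairs that include 3 consecutive units (GAANNTTCNNGAA or its complement TTCNNGAANNTTC). Both windows of Hsph1 also held 3 consecutive units. Pairs were present in 15.1% of all 32851 such windows and 3 units in 0.603%. Of the 57 genes of the heat shock lists with a window, 19 had a pair in at least 1 window, or 33.3%, against 16.97% of all 27025 genes with a window and 12.7% of the 3120 that were measured in all libraries. Of the same 57 genes, 5 had 3 units, or 8.77%, against 0.662% of all genes and 0.577% of those measured. The 2 windows of Dnajb1 held neither motif, which says only that these letters are not there. That of Hspa4l also held no pair, and that of Bag3 held 1 pair, after the start.

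The share of β-cells above the limit was 1.62% (19 of 1170, 0.980 to 2.52) without treatment. It was 8.73% (98 of 1123, 7.14 to 10.5) in the IL-1β library, 6.21% (78 of 1256, 4.94 to 7.69) in the IFN-γ library and 6.22% (78 of 1255, 4.94 to 7.70) in the combined one. The untreated share lay below the intervals of the treated libraries, and those of the treated libraries overlapped. After each cell was thinned to 4000 UMIs and the members chosen again, the shares were 1.41, 7.53, 5.39 and 5.56%, with 35, 74, 50 and 31 shallower β-cells left out. The upper gene limit had removed 623, 43, 131 and 105 β-cells, of which 3, 0, 2 and 6 were above the limit on Hspa1a.

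**Figure D1:**
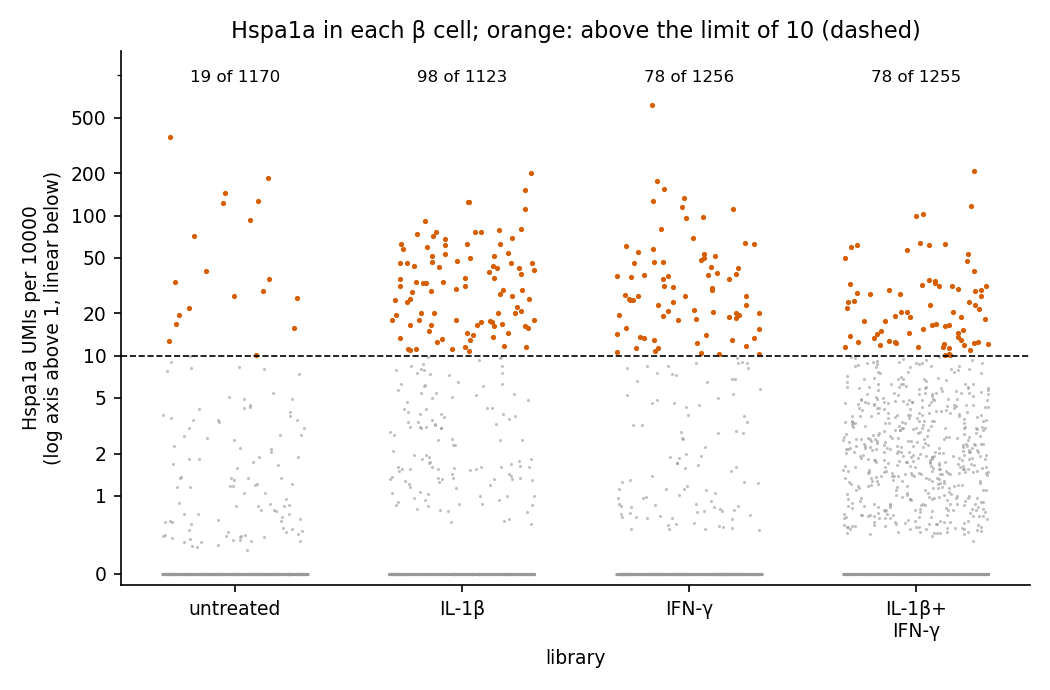
Hspa1a UMIs per 10000 UMIs in each β-cell (vertical axis, log scale above 1) by library (horizontal axis), with the 10 per 10000 limit dashed, members in orange and their number above each library. Cells above the limit lie in all 4 libraries, 19 of them in the untreated one, and the combined library holds the most cells between 0 and the limit.

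Hspa1a at the limit was continuous. The members just inside it had 10.1, 10.8, 10.3 and 10.1 UMIs per 10000, and the β-cells just outside had 9.95, 9.75, 9.66 and 9.95. In the untreated library that member had 1 Hspa1a UMI among 995 UMIs. Medians among the members were 33.3, 30.5, 26.9 and 20.5 per 10000. Among the other β-cells, 91.0, 87.9, 92.0 and 55.9% had no Hspa1a UMI at all, and 9, 26, 19 and 79 cells lay between 5 and 10. The combined library thus had low Hspa1a counts in more β-cells than the rest, and its members had the lowest median. In this library, cells led by Gcg and Sst held Hspa1a at 753 and 1393 CPM, and the part of free RNA in the low counts of β-cells was not tested.

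The label was checked against its 4 markers. The members and the other β-cells differ on Hspa1a by construction, and Hspa1a is left out of every count below. Of the 273 members, 184 had UMIs of all 3 of Hspa1b, Hsph1 and Dnajb1 and 4 had none, against 245 with all 3 among the 4531 other β-cells. By library these others were 20 of 1151, 31 of 1025, 21 of 1178 and 173 of 1177, so most were in the combined library. In the untreated library 9 of 19 members had all 3, in the treated libraries 69 of 98, 53 of 78 and 53 of 78. The label therefore fitted about as many untreated members as it did not, and the members held 213010, 652249, 704726 and 876711 UMIs in all, so that values of the untreated members are the least precise. Reads of Hspa1b and Hspa1a can be shared, so Hspa1b is not a separate check of the label. When cells were chosen by Hsph1 and Dnajb1 in place of Hspa1a, 157 of the 273 members were among them.

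Depth and composition differed between members and the other β-cells and are given here since they bear on all that follows. Median UMIs were 12279, 6360.5, 8819 and 11806 in members and 17269, 8508, 11247 and 12227 in the others, so that members were shallower in every library. Median mitochondrial UMIs were 2.81, 6.22, 5.86 and 4.94% in members and 5.05, 6.29, 6.53 and 5.11% in the others, with the widest gap in the untreated library. Insulin took a median of 32.7, 21.3, 26.2 and 33.8% and 41.4, 20.8, 28.0 and 31.8% of UMIs. Markers of endothelial cells (Pecam1, Cdh5, Plvap, Kdr and Flt1) summed to 4.69, 1.53, 0 and 0 CPM in members and 1.17, 9.98, 1.59 and 5.01 CPM in the others. All 5 were at 0 in the members of the IFN-γ and combined libraries. The sum of 6 macrophage markers was lower in members in every library, at 42.3, 30.7, 28.4 and 99.2 against 82.2, 49.4, 47.7 and 148 CPM, with C1qa the most abundant, 1, 1, 2 and 2 of the 6 higher in members and 4, 4, 3 and 3 of the 6 at 0 in members. The 5 mesenchymal markers summed to 0, 1.53, 18.4 and 0 against 0.305, 0.673, 2.27 and 0.274 CPM, with 10 of the 13 UMIs of the IFN-γ members in 1 cell. The 7 α-cell markers, led by Ttr or Gcg, summed to 329, 465, 363 and 254 CPM in members and 352, 361, 379 and 238 CPM in the others. The 4 δ-cell markers summed to 108, 176, 72.4 and 303 against 63.1, 106, 61.3 and 66.9 CPM. A single cell held 11 of the 23 UMIs of the untreated members, 90 of the 115 UMIs of the IL-1β members and 141 of the 266 of the combined members, and without it (an alternative chosen after seeing the data, as for Ppy) the sums were 58.9, 38.9 and 145 CPM, of which the untreated and IL-1β ones were below the others. Ppy was at 235, 147, 111 and 279 against 147, 93.8, 189 and 139.8 CPM, and without the highest cell of each library members were at 103, 49.9, 87.5 and 184 CPM. The 6 acinar markers stood at 1492 against 295 CPM in the combined library, where a single member held 1298 of 1308 UMIs, and at 65.7, 18.4 and 49.7 against 71.6, 14.3 and 81.0 CPM in the other libraries. The 4 ductal markers, led by Krt7, summed to 423, 236, 227 and 205 against 204, 144, 197 and 175 CPM. The part of depth, mitochondrial share or these markers in the differences below was not tested, apart from the comparisons with thinned and depth-weighted cells. Libraries shared 1 to 4 barcodes in pairs (16 in all), none of them among members, and a doublet caller marked 75 of 7471 kept barcodes, 1 of them a member.

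Among HSP70 and HSP110 genes, Hspa1b (chromosome 17, 34956436 to 34959238 on GRCm38) was at 1803, 1966, 1608 and 1174 CPM in members and 10.9, 37.3, 16.0 and 81.3 CPM in the others. Reads of Hspa1b and Hspa1a (chromosome 17, 34969190 to 34972156) can be shared, so its values are uncertain as a separate measurement. Hspa1a itself, which chose the cells, was at 6211, 3630.5, 3590 and 2682 CPM in members and 17.6, 37.0, 20.8 and 126 CPM in the others. Hsph1 (chromosome 5, 149614287 to 149636376) was at 934, 908, 646 and 684 CPM in members and 49.5, 95.2, 92.5 and 122 CPM in the others, a mean log2 difference of 3.20 ± 0.76 (SD, n = 4 libraries of different treatment). The order of this difference was untreated, IL-1β, IFN-γ and combined from high to low, and the counting intervals of IFN-γ and IL-1β did not overlap (2.64 to 2.96 and 3.10 to 3.41). Hspa8, the constitutive HSP70, was at 2704, 2148, 1711 and 2176 against 667, 1085, 824 and 1926 CPM, which is little apart in the combined library. Hspa4l was at 46.9, 136, 102 and 94.7 against 32.5, 42.6, 49.9 and 33.0 CPM. Hspa4, its HSP110 relative, went the other way, at 32.9, 69.0, 69.5 and 86.7 against 76.7, 132, 104 and 106 CPM, lower in members of all 4 libraries although not past 1.5-fold in each. Hspa13 had log2 differences of -0.08, -0.83, -0.70 and -0.18. Within the family the inducible genes were high in members, and Hspa4 and Hspa13 were not.

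Of the HSP40 genes, Dnajb1 (chromosome 8, 83608193 to 83612653) was at 526, 673, 443 and 514 CPM in members and 15.9, 39.6, 27.9 and 58.2 CPM in the others (log2 difference 4.07 ± 0.78). Dnaja1 was at 939, 1189.7, 856 and 696 against 131, 221, 179 and 206 CPM (2.32 ± 0.45). Both were high in every library. Dnajb4 had log2 differences of -0.05, 1.17, 1.07 and 1.71, and it reached 20 CPM over all β-cells only with IL-1β and with IFN-γ, each given alone. Dnajb6, which keeps aggregation-prone proteins soluble, had log2 differences of -0.16, 0.13, 0.21 and -0.17, under 1.5-fold in each library. The HSP90 genes Hsp90aa1 (the inducible form) and Hsp90ab1 (the constitutive form) were at 2221, 3029.5, 2426 and 1892 against 401, 1066, 618 and 942 CPM and 2385, 1859.7, 1845 and 1652 against 673, 867, 866 and 1063 CPM, respectively. Their partners Ahsa1, which activates the HSP90 ATPase, Stip1, which links HSP70 to HSP90, and Cacybp had mean log2 differences of 1.32 ± 0.53, 1.05 ± 0.37 and 1.18 ± 0.48, each under 1.5-fold in the combined library alone. Bag3, an HSP70 nucleotide exchange factor that links to autophagy, was at 117, 110.4, 71.0 and 102 against 13.9, 63.2, 25.1 and 43.1 CPM. The kinase-delivering cochaperone Cdc37 had log2 differences of -0.29, -0.19, -0.02 and -0.08, with counting intervals that included 0 in each library.

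The small heat shock protein Hspb1 had the highest mean log2 difference of these lists after Hspa1b, 5.51 ± 1.10. It was at 577, 426, 393 and 289.7 CPM in members and 4.12, 11.99, 11.5 and 11.5 CPM in the others, and its log2 differences were 7.13, 5.15, 5.10 and 4.65. In the untreated library it was below 20 CPM over all β-cells, and 1 member held 48.0% of its member UMIs. Serpinh1, the collagen chaperone and an HSF1 target, was rare, with 3, 22, 10 and 6 UMIs in members at 14.1, 33.7, 14.2 and 6.84 CPM against 1.63, 2.35, 1.89 and 1.51 CPM in the others. Of the other small heat shock proteins, Hspb6 was at 0, 7.67, 2.84 and 12.5 against 8.19, 11.5, 11.03 and 11.1 CPM, and Cryab had at most 1 UMI in the members of any library. With IL-1β, 2 of the 5 small heat shock genes were measured and both were over 1.5-fold higher in members. The mitochondrial cochaperonin Hspe1 was at 1066, 1024, 633 and 496 against 180.4, 307, 250.1 and 219.5 CPM (1.70 ± 0.62), and its partner Hspd1 at 244, 293, 239.8 and 245 against 119, 202, 177 and 149 CPM. Of the list of chaperonins and mitochondrial chaperones, 7, 1, 1 and 2 of 10, 10, 11 and 12 measured genes were over 1.5-fold higher in members and 0, 0, 0 and 2 lower, with medians of 0.73, 0.06, 0.12 and -0.15. Of all measured genes, 15.2, 6.98, 4.37 and 4.11% were higher and 30.1, 26.9, 21.9 and 16.6% lower. Among the subunits of the cytosolic chaperonin, which folds actin and tubulin, Cct5 had log2 differences of 0.82, 0.45, 0.07 and -0.17 and Tcp1 of 0.28, -0.20, 0.12 and -0.02. Cct2, Cct4, Cct5 and Cct8 were over 1.5-fold higher in the untreated members alone. Ubb, which encodes ubiquitin, was at 4352, 2536, 2751 and 2498 against 1607, 1331, 1211 and 1707 CPM. The transcript of HSF1 itself was at 18.8, 13.8, 12.8 and 25.1 against 15.2, 16.8, 17.4 and 16.5 CPM, and that of Hsf2 was at 42.3, 35.3, 28.4 and 19.4 against 12.6, 12.7, 18.0 and 11.4 CPM, both below 20 CPM over all β-cells.

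**Figure D2:**
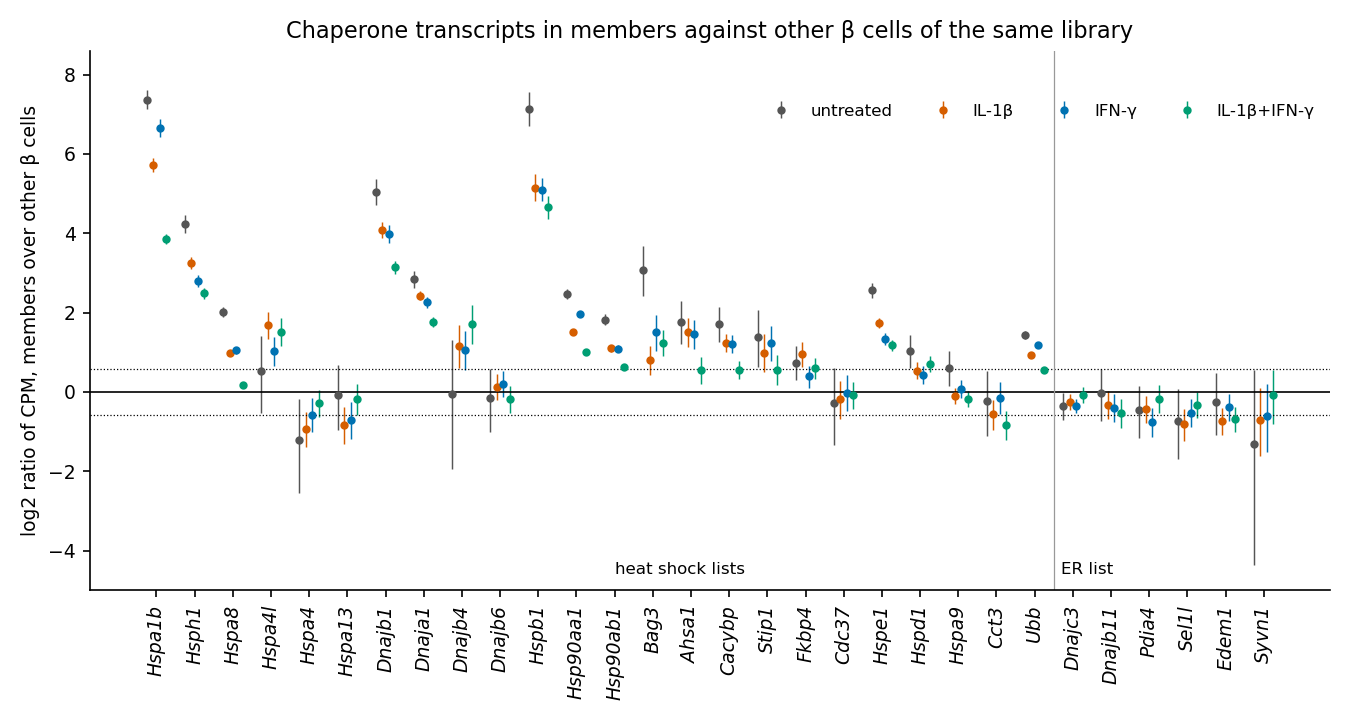
Log2 ratio of CPM in members over other β-cells of the same library (vertical axis) for genes of the heat shock lists and, right of the line, of the endoplasmic reticulum list, with exact 95% counting intervals and dotted lines at 1.5-fold. Hspa1b, Hsph1, Dnajb1, Dnaja1 and Hspb1 lie above the upper line in all 4 libraries, while none of the 6 endoplasmic reticulum genes does.

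A gene was counted as measured in a library at 20 CPM or more over all its β-cells, and 3880 genes were so in all 4 libraries. Over 1.5-fold higher in members of all 4 were 20 of these, or 0.515%, and over 1.5-fold lower were 79, or 2.04%. These counts came from the same contrast that the selection used and are descriptions. They rested on the libraries included. Without the untreated library they were 33 and 172, without the IFN-γ library 31 and 139, and without the combined library 39 and 238. The genes called also changed with the processing. With cells thinned to 4000 UMIs, 13 of the 20 higher and 44 of the 79 lower genes were called again. With insulin, Iapp, Hspa1a and Hspa1b left out of the totals, 12 and 21 were, and with called doublets removed, 19 and 79. Of the 69 genes of the 6 heat shock lists, 47 were measured in all 4 libraries, of which 7 were higher and 0 lower in all 4 (Hspa1b, Hsph1, Dnajb1, Dnaja1, Hsp90aa1, Hsp90ab1 and Hspe1). By library, 30, 24, 22 and 13 of 48, 54, 54 and 52 measured genes of these lists were over 1.5-fold higher, beside 15.2%, 6.98%, 4.37% and 4.11% of all measured genes, and 2, 7, 2 and 5 were lower, beside 30.1%, 26.9%, 21.9% and 16.6%. The median log2 difference of the lists together was 0.74, 0.41, 0.41 and 0.04, that of all measured genes -0.14, -0.21, -0.16 and -0.12.

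The endoplasmic reticulum has its own chaperones, which the unfolded protein response controls. All 19 genes of that list were measured in all 4 libraries, and 0 were over 1.5-fold higher or lower in all 4. Their median log2 difference was -0.02, -0.25, -0.19 and -0.09. By library, 4, 0, 0 and 0 of 19, 19, 19 and 19 measured genes were over 1.5-fold higher in members and 2, 4, 2 and 1 lower, beside the shares of all measured genes given above. The difference between this list and the heat shock lists was not tested. The unfolded protein response genes Sel1l, Edem1 and Syvn1, which act in the degradation of misfolded proteins of the endoplasmic reticulum, had mean log2 differences of -0.60 ± 0.22, -0.51 ± 0.24 and -0.68 ± 0.50, and Dnajc3 was at 333, 354, 377 and 258 against 428, 420, 484 and 271 CPM. In the integrated stress response list, 3, 0, 1 and 0 of 7, 10, 9 and 10 measured genes were over 1.5-fold higher in members and 1, 4, 2 and 6 lower, with medians of 0.58, -0.40, -0.14 and -0.60. Ddit3, a transcription factor of that response, was at 188, 235, 199 and 205 against 59.8, 165, 144 and 259 CPM and Atf4 at 230, 262, 226 and 291 against 154, 402, 248 and 437 CPM, both higher without treatment and, in the combined library, lower. Sesn2, which restrains mTORC1, was over 1.5-fold lower in all 4 libraries, with 0, 13, 9 and 23 UMIs in members.

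The counts by library of other cell systems are to be read beside the same shares of all measured genes, 15.2, 6.98, 4.37 and 4.11% over 1.5-fold higher in members and 30.1, 26.9, 21.9 and 16.6% lower. The 80 measured cytosolic ribosomal protein genes had median log2 differences of 0.67, 0.37, 0.36 and 0.13, and 57, 0, 1 and 0 of 80, 80, 80 and 80 measured genes were over 1.5-fold higher in members and 0, 1, 0 and 0 lower, so that only the untreated count of higher genes was above its background. Rpl9 was at 2479, 2258, 2116 and 1639 against 1351, 1536, 1504 and 1444 CPM, and the initiation factor Eif1 at 1662, 1762, 1731 and 1449.7 against 1052, 1394, 1116 and 1322 CPM. Of 73 nuclear genes for oxidative phosphorylation, 0 were higher and 1 lower in all 4 libraries. That 1 was Ndufa4, a cytochrome c oxidase subunit, at 89.2, 79.7, 78.0 and 68.4 CPM in members and 291, 355, 316 and 158 CPM in the others, whereas the list medians were 0.35, 0.34, 0.22 and 0.09 and, by library, 22, 14, 4 and 0 of 73, 73, 73 and 73 measured genes were over 1.5-fold higher in members and 2, 2, 3 and 3 lower. Of 12 mitochondrially encoded genes measured in all 4, 0 passed in either direction. By library, 1, 0, 0 and 0 of 13, 13, 13 and 12 measured genes were over 1.5-fold higher in members and 7, 2, 3 and 0 lower, with medians of -0.67, -0.03, -0.30 and 0.01. In the libraries with IL-1β the count of lower genes was below its background. The gene mt-Nd1 was at 756, 1918, 1779 and 1638 against 2216, 3088, 3096 and 2005 CPM. Of the 34 proteasome subunits, 0 passed in all 4 libraries, their medians were 0.51, -0.15, 0.08 and -0.16, and by library 16, 0, 1 and 0 of 34, 37, 36 and 36 measured genes were over 1.5-fold higher in members and 1, 5, 5 and 5 lower. The immunoproteasome subunits Psmb8 and Psmb10, which interferon induces, were lower in the members of all 3 treated libraries, with log2 differences there of -1.19, -1.39 and -0.92 and -1.50, -1.46 and -1.18. In the antioxidant list, Txnip, an inhibitor of thioredoxin, was higher at 103, 216, 153 and 122 against 33.5, 25.6, 33.5 and 48.7 CPM, while thioredoxin itself (Txn1) was lower at 42.3, 115, 71.0 and 129 against 130.2, 241, 141 and 299.8 CPM and its reductase Txnrd1 at 51.6, 93.5, 93.7 and 114 against 92.2, 242, 145 and 205 CPM. By library, 2, 1, 1 and 1 of 10, 11, 11 and 10 measured antioxidant genes were over 1.5-fold higher in members. Lower were 2, 3, 2 and 2, and the medians were 0.26, -0.18, -0.10 and -0.12. Of 13 translation factors, 0 passed in either direction in all 4 libraries, and by library 4, 0, 1 and 0 of 13, 13, 13 and 13 measured genes were over 1.5-fold higher in members and 0, 3, 0 and 2 lower. Of the apoptosis list 0 of 5 genes measured in all 4 did so, and by library 1, 1, 0 and 0 of 5, 10, 7 and 10 measured genes were over 1.5-fold higher in members and 1, 4, 3 and 4 lower, with medians of -0.31, -0.54, -0.10 and -0.34. Bax, which permeabilises mitochondria, was at 93.9, 78.2, 119 and 89.0 against 116, 116, 119 and 121 CPM. Of 8 immediate early genes measured in all 4, 1 was higher, Jun, at 920.1, 902, 627 and 649 against 118, 156, 209 and 317 CPM, whereas Fos was at 56.3, 64.4, 48.2 and 49.0 against 33.5, 43.4, 62.5 and 18.7 CPM and Egr1 at 14.1, 98.1, 29.8 and 43.3 against 74.4, 123, 179 and 46.3 CPM. By library, 2, 3, 1 and 4 of 8, 14, 9 and 15 measured immediate early genes were over 1.5-fold higher in members. Lower were 1, 3, 3 and 1. The long nuclear RNA Malat1, often raised in damaged cells, was at 11112, 13118, 11668 and 10916 against 7869, 13125, 11661 and 10035 CPM. None of the 6 disallowed or dedifferentiation genes was measured in any library.

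Outside these lists, the genes with the highest mean differences were Swt1, a nuclear RNA endonuclease (1.81 ± 0.64), Arl4a (1.33 ± 0.41), the noncoding Gm26917 (1.20 ± 0.43) and Zfp622 (1.20 ± 0.54), each higher in all 4 libraries. Swt1 was at 42.3, 147, 155 and 111 CPM in members and 21.3, 32.3, 29.0 and 35.5 CPM in the others. The lowest were ranked only among genes with a UMI in the members of every library. Lists included, they were Chst11, Wipi1, Abca1, Gphn, Ndufa4, Igf1r, Ckap4, Cops6, Dnajc10 and Enpp4, of which Ndufa4 is in the oxidative phosphorylation list. Of these Igf1r, the receptor of insulin-like growth factor 1, was at 14.1, 181, 150.4 and 153 CPM in members and 154, 569.7, 323 and 249.8 CPM in the others, and Wipi1, which acts in autophagosome formation, at 9.39, 35.3, 14.2 and 27.4 against 37.0, 175, 41.2 and 69.5 CPM. For Chst11, Abca1, Ckap4, Dnajc10 and Enpp4 the untreated value rests on 1 UMI.

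Where IL-1β had been given, most genes of the IL-1β response were lower in members than in the other β-cells. Of the IL-1 and NF-κB list, 25 of 30 genes were measured with IL-1β, of which 17 were over 1.5-fold lower in members and 1 was higher, beside 26.9% and 6.98% of all measured genes, with a median log2 difference of -1.76. In the combined library 28 were measured, 18 were lower and 1 was higher, beside 16.6% and 4.11%, with a median of -0.77. All measured genes had medians of -0.21 and -0.12. Without IL-1β the list as a whole was not lower in members. Over its 10 genes measured in all 4 libraries, the median log2 differences were 0.66, -1.05, 0.07 and -0.60. In the untreated library 5 of 10 measured genes were over 1.5-fold higher in members and 1 lower, beside 15.2% and 30.1% (median 0.66), and with IFN-γ 3 of 12 were higher and 2 lower, beside 4.37% and 21.9% (median 0.30). Nos2 (chromosome 11, 78920787 to 78960254) was at 15.3 CPM (7.35 to 28.2) in members and 149 CPM in the others with IL-1β, and at 268 CPM (235 to 305) and 661 CPM with both cytokines. It had 0 UMIs in both classes of untreated β-cells, which allows up to 14.1 CPM in the few untreated members, so with IL-1β alone a response of the members was not detectable at this depth. With both cytokines, their level was well above that limit. The adhesion molecule Icam1 was at 16.9 against 143 CPM with IL-1β and 175 against 411 CPM with both. The mitochondrial superoxide dismutase Sod2 was at 219 against 1086 CPM and 451 against 988 CPM. The antimicrobial peptide Defb1 was at 334 against 1039 CPM and 395 against 872 CPM. The siderophore-binding Lcn2 was, with IL-1β, at 21.5 against 568 CPM.

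**Figure D3:**
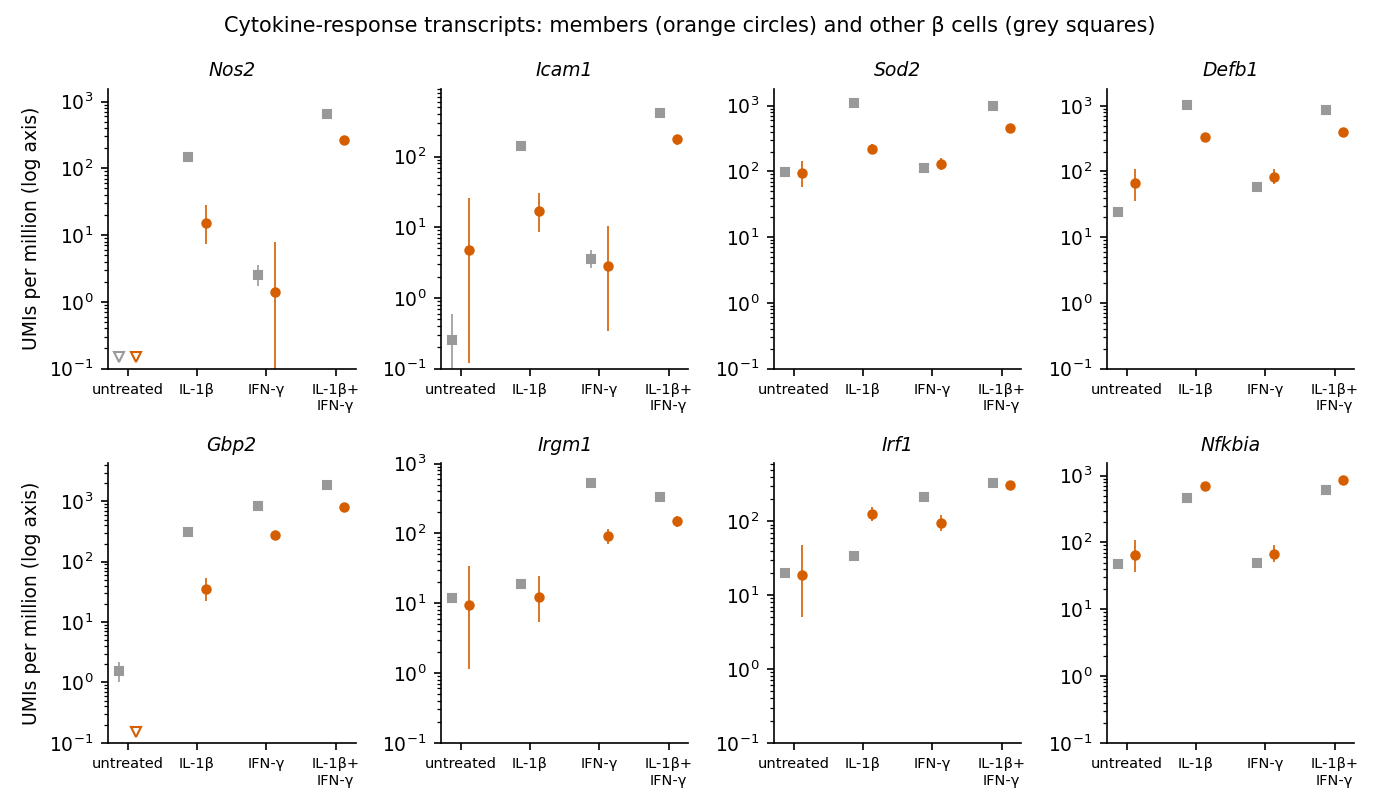
CPM (vertical axis, log scale) of 8 cytokine-response genes in members (orange circles) and other β-cells (grey squares) of each library, with exact Poisson 95% intervals and open triangles where no UMI was found. Nos2, Icam1, Sod2 and Defb1 are lower in members wherever IL-1β was given, whereas Nfkbia is not.

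Not every IL-1β gene differed in that direction. Nfkbia, the NF-κB inhibitor that NF-κB itself induces, was at 696 against 461 CPM with IL-1β and 866 against 605 CPM with both. In the untreated library it was at 65.7 against 48.2 CPM, so that members reached at least the level of the other β-cells after IL-1β. Nfkbiz was at 213 against 191 CPM with IL-1β and 189 against 167 CPM with both. Relb was at 29.1 against 32.4 CPM with IL-1β. With both it was at 67.3 against 38.3 CPM, the 1 gene of the list over 1.5-fold higher there. The IL-1 receptor Il1r1 was at 93.9, 147, 125 and 69.6 against 241, 262, 229 and 92.99 CPM, lower in members of all 4 libraries, and Stat3 was over 1.5-fold lower in all 4 at 89.2, 144, 139 and 301 against 148, 345, 217 and 463 CPM. Of the list of cytokine receptors and signalling, 1, 2, 0 and 0 of 9, 18, 14 and 16 measured genes were over 1.5-fold higher in members. Lower were 3, 8, 3 and 6. Of all measured genes, 15.2, 6.98, 4.37 and 4.11% were higher and 30.1, 26.9, 21.9 and 16.6% lower.

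The interferon response showed the same direction. With IFN-γ, 34 of 43 measured genes of the list were over 1.5-fold lower in members and 1 was higher, beside 21.9% and 4.37% of all measured genes (median log2 difference -1.16, all genes -0.16). With both cytokines, 37 of 44 were lower and 0 higher, beside 16.6% and 4.11% (median -0.91). With IL-1β alone, 20 of 29 were lower and 2 higher, beside 26.9% and 6.98% (median -1.14). Without treatment, 9 genes of the list were measured, of which 1 was lower and 2 higher, beside 30.1% and 15.2% (median -0.12). The guanylate-binding protein Gbp2 (chromosome 3, 142620602 to 142638008) was at 0, 35.3, 277 and 804 CPM in members and 1.53, 305, 848 and 1883 CPM in the others, which places the members with both cytokines near the others with IFN-γ alone. Irgm1, an interferon-induced GTPase, was at 92.2 against 519.5 CPM with IFN-γ and 149 against 336 CPM with both, and Gbp5 at 148 against 337 CPM with both. Socs1, the feedback inhibitor of JAK signalling, had 1 UMI in the IFN-γ members, at 1.42 against 38.7 CPM. Irf1, an early target of both pathways, was lower in members with IFN-γ, at 95.1 against 211 CPM, near the others with both, at 314 against 329 CPM, and higher with IL-1β, at 127 against 34.1 CPM (log2 difference 1.90, 1.53 to 2.26), where 41 of 98 members had a UMI. The chemokine Cxcl10 was at 98.1 against 62.9 CPM with IL-1β (log2 difference 0.64, 0.25 to 1.02), over 1.5-fold higher in members, with UMIs in 17 of 98 of them and 25% of the UMIs in 1 cell, without which the level was 74.6 CPM. It was at 328 against 62.3 CPM with IFN-γ, but 85.7% of the members' UMIs were from 1 cell, and without it the level was 47.6 CPM and its log2 difference -0.39. With both cytokines Cxcl10 was at 1688 against 2746 CPM.

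The size of these gaps depended on which cells were chosen. In the combined library, at 5 UMIs per 10000 the log2 difference of Nos2 was -0.46 and that of Gbp2 -0.67, at 10 they were -1.30 and -1.23, and at 20 they were -2.71 and -2.20. Where members were chosen by Hsph1 and Dnajb1, they were -2.12 and -1.82. With insulin, Iapp, Hspa1a and Hspa1b left out of the totals, which also put more cells over the limit (10.6% in place of 6.22%), they were -0.45 and -0.59, so that Nos2 was no longer past 1.5-fold, and with no upper gene limit that of Nos2 was -0.84. With IL-1β alone, the log2 difference of Nos2 was -1.63 at 5, -3.28 at 10 and -3.52 at 20.

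Several genes of β-cell identity were higher in members where IL-1β had been given. With IL-1β, 10 of 31 measured genes of that list were over 1.5-fold higher in members and 6 lower. With both cytokines 10 of 29 were higher and 2 lower, with IFN-γ 1 of 32 higher and 7 lower, and without treatment 1 of 32 higher and 11 lower. Of all measured genes, 6.98% were higher and 26.9% lower with IL-1β, 4.11% and 16.6% with both, 4.37% and 21.9% with IFN-γ, and 15.2% and 30.1% without treatment, so the shares of lower genes with IFN-γ and without treatment were near the background. The list medians were -0.41, 0.12, -0.19 and 0.21. Mafa (chromosome 15, 75745490 to 75748228) was at 211, 307, 375 and 119.8 CPM in members and 627, 54.1, 473 and 48.1 CPM in the others. The other β-cells thus had far less Mafa in the libraries with IL-1β than in those without, and the members differed less between libraries. Ucn3 was at 75.1, 112, 140.5 and 76.4 against 169.6, 26.1, 143 and 36.3 CPM, the fatty acid oxidation enzyme Hadh at 235, 329.6, 372 and 194 against 317, 104, 290.3 and 88.7 CPM and the signalling protein Wnt4 at 329, 228, 268 and 261 against 381, 65.1, 278 and 93.9 CPM, and Mafa, Ucn3, Hadh and Wnt4 shared a pattern. In each, members were above the others with IL-1β, alone or combined, and at or below them without it, except Hadh with IFN-γ, where the members were above. The glucose transporter Slc2a2 was at 9.39, 29.1, 45.4 and 21.7 against 141, 13.0, 92.7 and 9.60 CPM, with 2 UMIs in the untreated members, and Pdx1 at 51.6, 82.8, 82.3 and 51.3 against 141, 45.6, 105 and 31.0 CPM. Trpm5, a cation channel, was higher in the members of the 3 treated libraries at 93.9, 103, 143 and 94.7 against 109, 40.0, 76.2 and 56.0 CPM. Isl1, a transcription factor, was the gene of the list lower in all 4 libraries, at 65.7, 110.4, 96.5 and 61.6 against 123, 207, 150.3 and 104 CPM. G6pc2, a glucose-6-phosphatase, was lower in members of each library too, at 84.5, 232, 253 and 144 against 293, 605, 385 and 184 CPM, though under 1.5-fold with both. Nkx6-1 did not differ by 1.5-fold in any library, at 235, 147, 149 and 109.5 against 221, 126, 198 and 91.8 CPM.

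**Figure D4:**
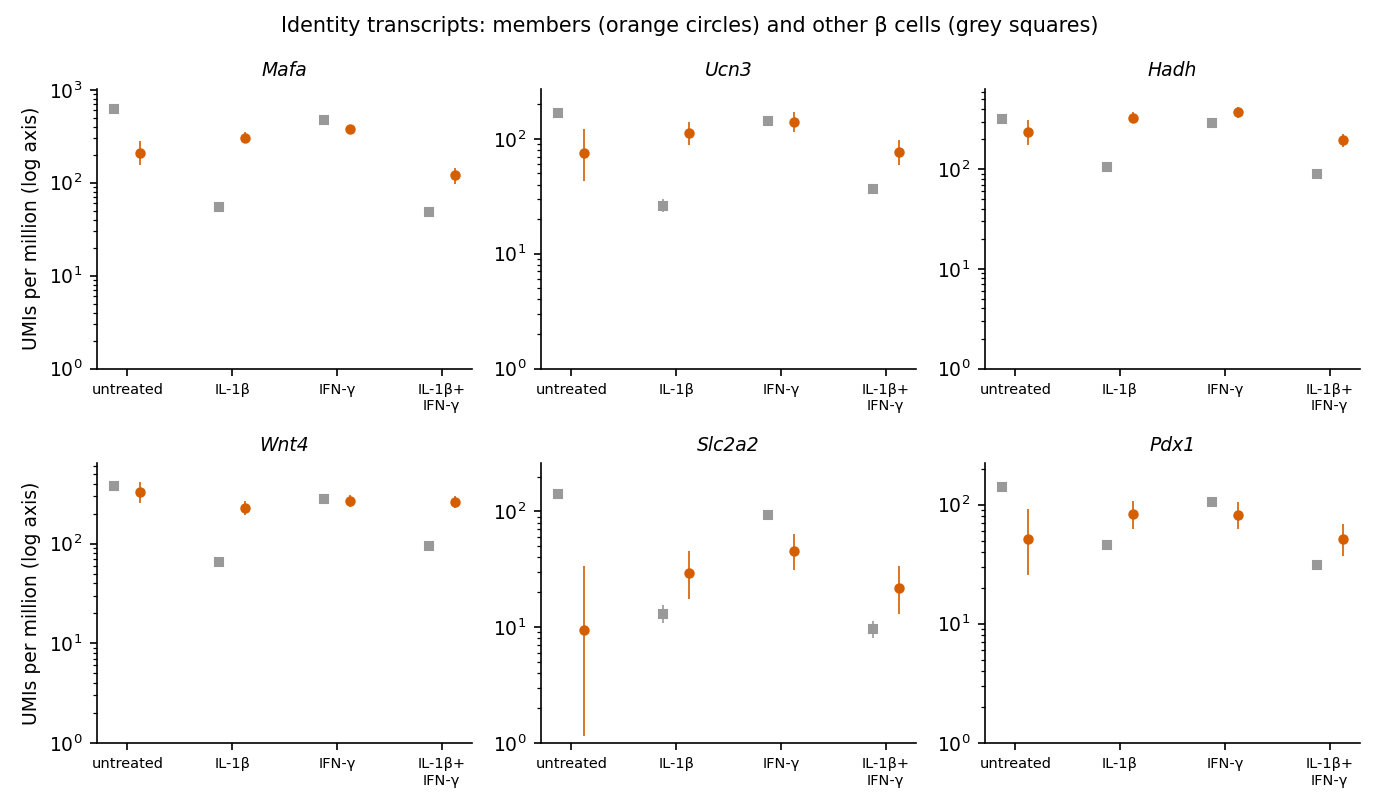
CPM (vertical axis, log scale) of 6 identity genes in members (orange circles) and other β-cells (grey squares) of each library, with exact Poisson 95% intervals. For Mafa the members lie above the others in the libraries with IL-1β, at 307 against 54.1 with IL-1β alone, and below them without treatment.

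The untreated members carry the least weight here. 1 cell held 35.6% of their Mafa UMIs, and with no upper gene limit the log2 difference of Mafa without treatment was -0.92 in place of -1.57.

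β-cells were then set out in classes of Hspa1a, which is a description along the selected transcript. With IL-1β, Nos2 was at 146 CPM in cells without Hspa1a UMIs, 147 CPM from 5 to 10 per 10000, 19.3 CPM from 10 to 20, 19.8 CPM from 20 to 50 and 0 CPM above 50. Mafa in the same cells was at 52.3, 50.5, 286, 254 and 438 CPM. For these genes the step lay at the limit, but for others of this library the levels were lower from class to class below it as well. Sod2 was at 1115, 934, 895, 698 and 298 CPM in cells without Hspa1a UMIs, up to 2, from 2 to 5, from 5 to 10 and from 10 to 20, and Icam1 at 146, 139.7, 115, 82.7 and 19.3 CPM. With both cytokines Nos2 was at 684, 685, 416, 65.5 and 199.8 CPM and Gbp2 at 1859.7, 1578, 1156, 478 and 190.2 CPM, the last class holding 11 cells. Here cells up to 10 per 10000 were like those without Hspa1a in Nos2, and Nos2 was lower from 10 to 20 and lower again from 20 to 50. With IFN-γ, Gbp2 was at 870.3 CPM without Hspa1a, 228 CPM from 2 to 5 (18 cells), 101 CPM from 5 to 10 (19 cells), 116 CPM from 10 to 20, 332 CPM from 20 to 50 and 456 CPM above 50 (18 cells), so that the low levels began below the limit and did not go on falling above it.

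**Figure D5:**
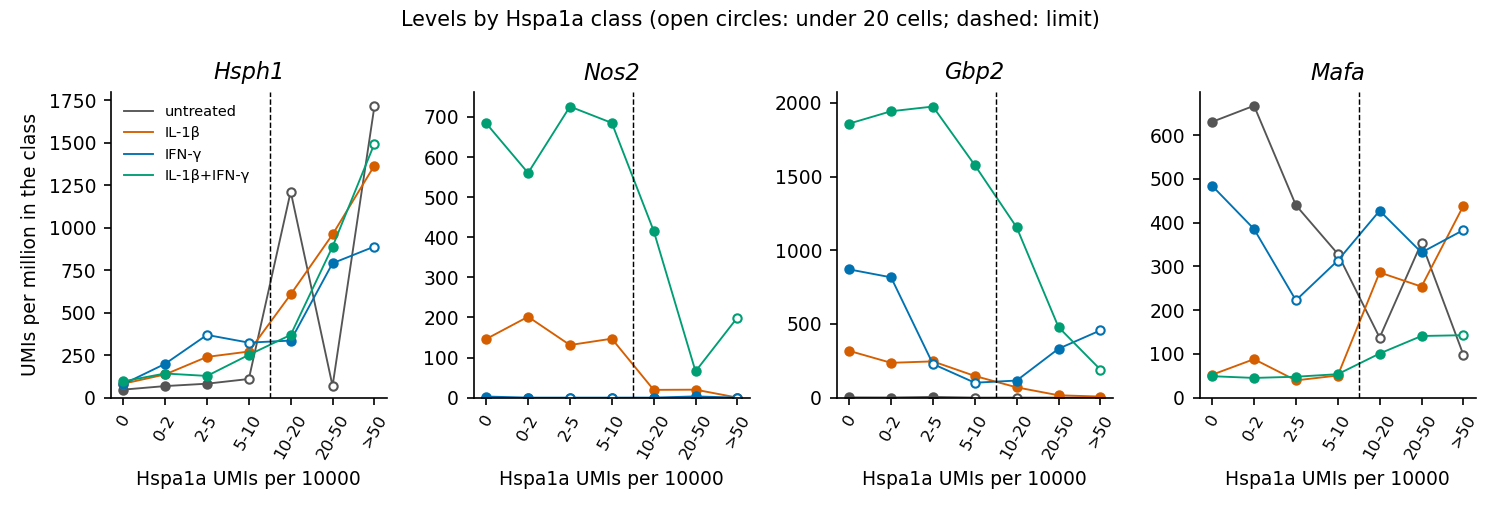
CPM (vertical axis) of Hsph1, Nos2, Gbp2 and Mafa in β-cells grouped by Hspa1a UMIs per 10000 (horizontal axis) in each library, with open circles for classes under 20 cells and the limit dashed. Nos2 in the combined library is at 685 just below the limit, 416 just above it and 65.5 in the next class.

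Members also varied by how much Hsph1 and Dnajb1 they carried. In the combined library the 31 members with over 10 UMIs per 10000 of the pair had Nos2 at 171 CPM, Gbp2 at 440.4 CPM and Icam1 at 72.1 CPM, and the 38 members at 1 to 10 had 341, 1089 and 241 CPM. With IL-1β Gbp2 was at 20.05 CPM in the 59 members above 10 and 65.3 CPM in the 32 at 1 to 10. With IFN-γ the order for Gbp2 was the reverse, at 391 CPM in the 33 members above 10 and 242 CPM in the 36 at 1 to 10. The 9 at no more than 1 had 0 Gbp2 UMIs. Without the member with most Gbp2 UMIs, its log2 difference with IFN-γ was -1.93 in place of -1.62. The classes were not compared without that cell. In the untreated library the 6 members at no more than 1 had Hspb1 at 0 and Jun at 153 CPM, while the 9 above 10 had 1150.5 and 1626 CPM. The untreated members thus held cells with Hspa1a and few other heat shock transcripts beside cells with many.

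The same limit was applied to the other islet cells of these libraries. Cells led by Gcg (at least 5% of UMIs, with insulin under 5%) were above it in 2.20% of 91 untreated cells. In the treated libraries the share was 5.85% of 359 cells, 2.59% of 309 and, in the combined one, 30.3% (23.8 to 37.4) of 188. For cells led by Sst the shares were 0 of 45, which at 3 counts allows a share of up to 6.67% (7.87% by the exact interval), then 4.50% of 111, 3.23% of 155 and 41.9% (30.5 to 53.9) of 74. For cells led by Ppy they were 2.22, 3.45, 1.92 and 20.3%. β-cells, at 6.22%, were thus well under the other hormone-led cells in the combined library, with intervals that did not overlap, whereas in the other libraries the intervals of β-cells overlapped those of each hormone-led class. In the combined library median UMIs were 12209 in β-cells, 8801 in Gcg-led and 6192 in Sst-led cells, and the part of depth in this difference was not tested. Each class comes from 1 library, so library and treatment cannot be told apart.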

How the data were processed

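The deposited files hold raw UMI counts per gene and barcode for 4 droplet libraries, made by the authors with Cell Ranger (matrix header 3.0.0) on mm10, per the labels and the file headers. The labels and the methods name different kit versions. Nothing was normalised before deposit. Barcodes were kept if 200 to 4000 genes were detected and the mitochondrial share did not exceed 12%. UMIs were summed per class and library. CPM carry exact Poisson 95% intervals and log2 differences exact conditional binomial ones, both for counting error only. Each group has 1 library, so no test between treatments was made. None was made over the 4 differences within libraries either. The ± values are SDs over 4 libraries that differ in treatment. Where a class had 0 UMIs, the limit is 3 counts. A gene was measured at 20 CPM over all β-cells, and counts use 1.5-fold.

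The members and the gene lists were chosen with earlier results of these data known. Named genes were those of the heat shock lists, the 15 highest and 10 lowest by mean difference with 1 direction in all 4 libraries, the 5 largest of each other list, and genes the study names. A gene with 0 UMIs in the members of a library has no mean difference and was not ranked. Gene positions are from GENCODE on GRCm38. Promoters are RefSeq windows, 250 bases before to 50 after each start. Doublets were called with Scrublet in scanpy 1.11.5 and kept, except in an alternative. On data simulated for the comparison of members with other β-cells in 3851 genes, the calls found 50 of 50 genes made 4-fold higher, 40 of 50 made 2-fold higher, 44 of 50 made 2-fold lower, 50 of 50 made 4-fold lower, and 0 of 3651 left as they were. The simulated cells of a class shared 1 profile and 1 depth, without the variation between real cells. The changed genes all lay well above the limit of 20 CPM. These rates therefore give no error rate for the counts from the real cells. Computation used scipy 1.17.1 under Python 3.11.15, with pandas 2.3.3 for tables and numpy 2.4.6. Alternatives changed the limit, the marker genes, the cell filters, the depth, the totals, the level limit and the libraries. Some genes of the lists are not reported by name here.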

Additional observations from a re-analysis of the deposited data

Results flagged for a closer look

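For 8 of the 172 named genes, the members were over 1.5-fold above the other β-cells in 1 library and over 1.5-fold below them in another. With 1 library a condition, the differences between libraries were not tested. Mafa, a transcription factor of mature β-cells, had a log2 difference of 2.50 in the IL-1β library and -1.57 in the untreated library, which are 4.07 apart. Ucn3, a secreted product of mature β-cells, had a log2 difference of 2.10 in the IL-1β library and -1.18 in the untreated library, which are 3.27 apart. Pdx1, a β-cell transcription factor, had a log2 difference of 0.86 in the IL-1β library and -1.45 in the untreated library, which are 2.31 apart. The untreated values of these 3 identity genes rest on 19 members. Defb1, an antimicrobial peptide, had a log2 difference of 1.45 in the untreated library and -1.64 in the IL-1β library, which are 3.08 apart. Irf1, an early interferon and NF-κB target, had a log2 difference of 1.90 in the IL-1β library and -1.15 in the IFN-γ library, which are 3.05 apart. Cxcl10, a chemokine, had a log2 difference of 2.40 in the IFN-γ library and -0.70 in the combined library, which are 3.10 apart. In the IFN-γ library 85.7% of the members' Cxcl10 UMIs were in 1 cell. Hmox1, the inducible haem oxygenase, had a log2 difference of 1.79 in the IFN-γ library and -0.69 in the combined library, which are 2.48 apart. Sqstm1, an autophagy receptor, had a log2 difference of 0.83 in the untreated library and -0.62 in the IL-1β library, which are 1.46 apart.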

How the results depend on the processing

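Of 656 alternative values over 36 results, 584 stayed within the spread or 1.5 times of the reported one, 69 moved further and 3 turned in direction. The cause was not tested. For counts of genes only the number was compared, not which genes were called. With limits of 5 and 20 Hspa1a UMIs per 10000, the share of members was 11.04 and 5.88% with IL-1β, 7.72 and 4.22% with IFN-γ, and 12.5 and 3.19% in the combined library. With insulin, Iapp and Hspa1a and Hspa1b left out of the totals, it was 2.56% untreated and 10.6% combined. Genes higher in all 4 libraries were 11 at the limit of 5 and 34 with members chosen by Hsph1 and Dnajb1. Hsph1 and Dnajb1 were not left out of that 34, although they then chose the cells, and Hspa1a was. Genes higher in all 4 were 52 when measured at 5 CPM and 8 at 50 CPM, and 23 to 39 without 1 library. Genes lower in all 4 were 25 and 134 at limits of 5 and 20, 33 with members chosen by Hsph1 and Dnajb1, 119 by the mean per cell, 47 with the changed totals, 213 at 5 CPM and 23 at 50 CPM, and 106 to 238 without 1 library. The IFN-γ list had a median of -1.04 over the libraries with IFN-γ and -1.32 at the limit of 20. The identity list had 0.16 over the libraries with IL-1β, 0.091 and 0.058 at limits of 5 and 20, 0.051 with cells thinned to 4000 UMIs and -0.019 at 50 CPM. Cxcl10 with IFN-γ turned to -0.090 with members chosen by Hsph1 and Dnajb1, -0.12 at 20% insulin or more and -0.39 without its highest member cell, an alternative chosen after seeing the data. The shares do not use the level limit, the weighting or the mean per cell, so these gave no alternative for them. Members and other β-cells of the same library form 4 pairs, and the ± values summarise the differences within them. No test was made over these pairs, which differ in treatment. The members were chosen on Hspa1a, so the difference in Hspa1a itself is set by the selection. Treatments have 1 library each and were not tested against each other. The 19 untreated members limit the precision of all values that need them.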
